A study of Mus musculus with 6 samples.

Results

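Circular RNAs (circRNAs) from genes that encode BEACH-domain proteins were examined in mouse cortex after status epilepticus (SE). The members were chosen by host gene alone: every listed circRNA whose host was Nbea, Lrba, Wdfy3, Lyst, Nbeal1, Nbeal2 or Nsmaf was taken, which gave 63 of the 11171 circRNAs in the table. Nbea held 39 of them, Lrba 15, Wdfy3 3, and Lyst, Nbeal1 and Nsmaf 2 each. Nbeal2 had no circRNA in the table, and neither had Wdr81 and Wdfy4, further BEACH-domain genes that were looked up beside the list. The family was picked out with the circle numbers and levels of this table already known, so those numbers and levels are given as a description, with no test.

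The libraries came from cortex of 6-week-old male C57BL/6 mice (C57BL/6J in the methods of the study), 3 per group, each library from a different mouse. TLE mice received scopolamine methyl bromide and then pilocarpine, which induced SE, and diazepam afterwards, and their cortex was taken 24 h after SE. Control mice received saline in place of each agent. The model is systemic, so every cell type of the cortex was exposed, and the tissue was sequenced in bulk: fewer cells of a type and less RNA per cell cannot be told apart. Levels are in SRPBM, the spliced reads across the back-splice junction scaled to the mapped reads of the library. The linear mRNAs of the hosts were not analysed here, so no level is set against that of the linear transcript.

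Values in a library were whole multiples of the SRPBM of a single junction read, between 8.55 and 10.3 SRPBM, and the smallest value listed was 2 reads. The libraries held 35598 to 41797 junction reads in Control and 32504 to 56516 in TLE. A listed 0 can therefore also stand for a single read. Where no read was seen, counting error alone allows up to 3 reads, 25.6 to 31.0 SRPBM depending on the library. Where a single read was seen but not listed, it allows more. Hosts known as neuron markers carried circles (Rims2, Grin2b, Syt1, Gria2 and Rbfox3, 5 of 8 listed), with a summed level of 2478 to 3031 SRPBM in Control and 3171 to 3980 SRPBM in TLE. Of 5 astrocyte markers only Slc1a2 had circles, at no more than 34.6 SRPBM in a library, and the 5 markers each of oligodendrocytes, microglia and endothelium had none. The neuronal sum was therefore higher in every TLE than in every Control library as deposited. It overlapped between groups without Rims2 (620 to 948 SRPBM in Control, 744 to 1056 SRPBM in TLE) and with all libraries set to the same total (2675 to 3474 and 3074 to 3692). Its part in the results below was not tested.

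A circRNA arises when the splice donor at the end of an exon joins the acceptor at the start of an upstream exon, which leaves a closed loop with a single back-splice junction. BEACH proteins are mostly very large scaffolds of vesicle traffic and membrane dynamics that carry a PH-like domain, the BEACH domain and WD repeats toward their end. Neurobeachin, the product of Nbea, is enriched in neurons, anchors protein kinase A and is needed for the delivery of receptors to synapses. LRBA, its closest relative, is known for recycling of the immune receptor CTLA4. Wdfy3 encodes ALFY, an adaptor of selective autophagy. Lyst encodes the regulator of lysosome-related organelles that is lost in Chediak-Higashi syndrome, and Nsmaf encodes FAN, an adaptor of neutral sphingomyelinase at a tumour necrosis factor receptor. Nbeal2 is known for granules of platelets. Nbeal1 is a less studied relative.

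The sequences below are the 30 bases across the back-splice junction of the leading circles, 15 from the end of the last exon in lower case and 15 from the start of the first exon in capitals. They were read from GENCODE mouse transcripts (GRCm38) in the direction of the transcript. Circles are named by the exons at their ends. Which exons lie inside a circle was not observed. Exon numbers and lengths given below count every exon of a reference transcript between the ends. They are shown because the junction is the part of a circle that its linear mRNA lacks, and because Nbea circles that share a first exon share the capitals.
Nbea exons 2 to 8: ggacctggttataagCTGGTTGGTGGGGAA
Nbea exons 2 to 10: agaaacaactgtctgCTGGTTGGTGGGGAA
Nbea exons 2 to 6: ttccagcctcgcaagCTGGTTGGTGGGGAA
Nbea exons 35 to 38: ggccgtgtcacacagGCCTTGTTTGTATGA
Nbea exons 36 to 38: ggccgtgtcacacagGAATGGCAGAACTCT
Lrba exons 38 to 40: aaaattgacccaaagTCGTCCTCGTGAGTT
Lyst exons 40 to 42: ttctagcctatcaagGTTCGTGATGACGTG
Nbeal1 exons 3 to 7: ttcctttcttttatcAAAGATCCAGATTAC
The first 3 Nbea junctions differ only on the donor side and the next 2 only on the acceptor side. They are members of separate hubs, the acceptor of exon 2 and the donor of exon 38.

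Nbea (ENSMUSG00000027799, GRCm38 chromosome 3, 55625195 to 56183701, minus strand) had the second highest number of circles of any host in the table, after Dgki with 44. By level it stood lower, at rank 18 among hosts, with a mean summed level of 1669 SRPBM and 0.440% of all SRPBM. Its circles were backed by 1124 junction reads over the 6 libraries. Most were rare: 27 of the 39 had at most 10 reads in all, 16 were seen in a single library and 5 in all 6. Each library listed 12 to 20 of the 39, with the fewest in TLE 1, the library with the fewest junction reads, and the most in TLE 3, the one with the most.

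A single circle led the host. The circle of exons 2 to 8 (mmu_circ_0006818, chromosome 3, 56079859 to 56091120, 945 bases of exon) measured 778, 642 and 836 SRPBM in the Control libraries and 630, 763 and 865 SRPBM in the TLE libraries. The groups overlapped throughout, and the means of 752 ± 99.6 and 753 ± 118 (SD, n = 3 each) were nearly equal. It made up 45.1% of the summed Nbea level and was the 43rd most abundant circRNA of the table. Its share of Nbea junction reads was lowest in Control 2 at 40.8% (95% Wilson interval 33.7 to 48.4, for counting error only) and highest in TLE 1 at 54.0% (44.8 to 62.9). Among the 56 hosts with at least 15 circles, the leading circle held a median of 32.8% of the host's level, and Nbea ranked 17th from the highest.

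The next circles were of 2 kinds, longer or shorter versions of the exon 2 circle and short circles around exons 35 to 38. Exons 2 to 10 (mmu_circ_0006817, 1277 bases) were at 197, 186 and 310 SRPBM in Control and 207, 184 and 329 SRPBM in TLE, a near match between groups. Exons 2 to 6 (mmu_circ_0006820, 678 bases) were at 171, 186 and 129 SRPBM in Control and 41.3, 96.4 and 147 SRPBM in TLE, so TLE 1 and TLE 2 lay below all Control libraries and TLE 3 within them. The circle of exons 35 to 38 (mmu_circ_0006794, 403 bases) was at 154, 130 and 207 SRPBM in Control and 62.0, 105 and 164 SRPBM in TLE, with the same order of TLE libraries and again an overlap through TLE 3. The circle of exons 36 to 38 (mmu_circ_0006793, 341 bases) was at 111, 93.0 and 17.2 SRPBM in Control and 31.0, 43.8 and 173 SRPBM in TLE. Its lowest value was in Control 3 and its highest in TLE 3, and relative to its level it had the widest spread of the 5.

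Many Nbea circles shared an end. The 39 circles used 14 distinct 5′ ends (the acceptor side) and 16 distinct 3′ ends (the donor side). On the 5′ side 10 ends were used by more than 1 circle and took in 35 circles, and on the 3′ side 8 ends took in 31 circles. Exon 2 was the main acceptor, with 8 circles and 70.0% of the Nbea level. By number of circles exon 38 was the main donor, with 7 circles and 17.0% of the level, followed by exon 34 with 5 circles and 1.92%. By level the donor of exon 8 stood first, with 45.1% from the leading circle alone, and that of exon 10 carried 14.1%, also from a single circle. The share of circles on a shared 5′ end, 89.7%, lay above the median of 82.6% for hosts with at least 15 circles, at rank 12 of 56. On the 3′ side the share was 79.5% against a median of 76.9%, at rank 26. The top acceptor by number held 20.5% of the circles against a median of 27.3%, and the top donor 17.9% against 20.8%.

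Intron 1, which precedes exon 2, is 91851 bases long, the longest of the 57 introns of Nbea, whose median is 2962 bases. The introns flanking Nbea circles had medians of 17829 bases upstream and 15399 bases downstream, against 10118.5 and 8537 bases over all placed circles of the table. A start at exon 2 was common in the whole table too: 27.7% of placed circles and 41.1% of their SRPBM began there, against 22.9% of circles and 71.0% of SRPBM for Nbea.

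Both ends lay exactly on annotated exon boundaries in 35 of the 39 Nbea circles and in 59 of the 63 BEACH circles. Over all circles with a host in the annotation the share was 91.0%. The 4 exceptions were all of Nbea and shared a single 5′ end, chromosome 3 position 56043119, in intron 10 and 2157 bases from the nearest exon. No annotated Nbea transcript has an exon end there. These 4 circles ran to the donors of exons 31, 33, 34 and 38, which other Nbea circles also used, had 2 to 5 reads each and were seen together at 0, 18.6 and 25.8 SRPBM in Control and 51.6, 17.5 and 26.0 SRPBM in TLE. With so few reads the groups could not be told apart. A further circRNA, mmu_circ_0006821 (991 bases, 5 reads in a single library), lay within the Nbea gene on its strand but had no host in the table and was not counted as a member.

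The placed Nbea circles spanned 2 to 33 annotated exons, with a median of 7 exons and 938 bases, and none spanned a single exon. All exon numbers and lengths here assume that every annotated exon between the ends is kept. Circles of more than 10 exons made up 25.7% of them and 28.8% of the placed BEACH circles, against 7.56% of the table. The longest ran from exon 2 to exon 34 over 5482 bases and rested on 7 reads in 2 libraries. All 35 placed Nbea circles consisted of coding exons only. The exonic length was a multiple of 3 in 14 of them (40.0%), which include the circles of exons 2 to 8 and 2 to 6 and carried 63.9% of the level of the placed circles.

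The part of neurobeachin that aligns with the Nsmaf protein, which contains the BEACH domain and the WD repeats, is encoded by exons 37 to 58. Of the placed Nbea circles, 19 lay before it and carried 76.6% of the level, 9 crossed into it with 19.6%, and 7 lay within it with 3.81%. No placed circle held exon 1, exon 41 or any of exons 49 to 58.

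**Figure D1:**
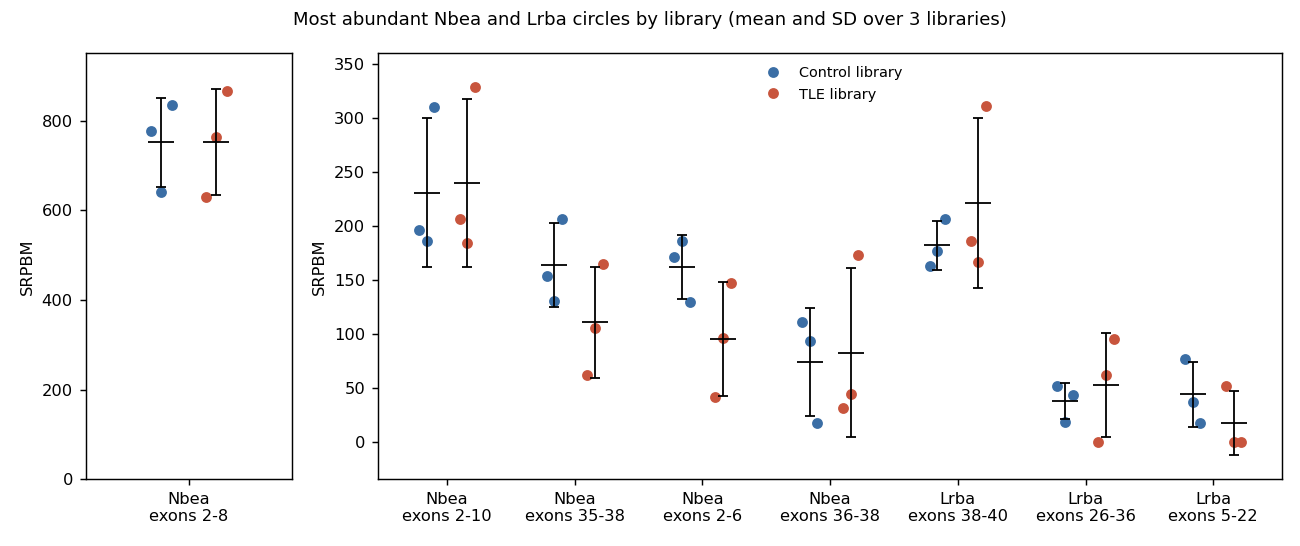
Level in SRPBM (y axis) of the 5 most abundant Nbea circles and the 3 most abundant Lrba circles, with 1 point per library, a horizontal mark at the mean and bars of 1 SD over the 3 libraries of a group. The Nbea circle of exons 2 to 8 has its own axis, its groups have nearly equal means, and in each of the 8 circles the groups overlap.

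Lrba (ENSMUSG00000028080, chromosome 3, 86224680 to 86782692, plus strand) had 15 circles with 251 junction reads and a mean summed level of 375 SRPBM. Its leading circle, exons 38 to 40 (mmu_circ_0006923, 86532085 to 86542711, 409 bases), was at 162, 177 and 207 SRPBM in Control and 186, 167 and 312 SRPBM in TLE. TLE 3 stood above the other libraries, and the remaining values overlapped. It held 53.8% of the Lrba level, rank 7 among the 56 hosts with at least 15 circles. Exons 26 to 36 (mmu_circ_0006918) were at 51.3, 18.6 and 43.1 SRPBM in Control and 0, 61.4 and 95.2 SRPBM in TLE, a spread that covered both groups. Exons 5 to 22 (mmu_circ_0006911) were at 76.9, 37.2 and 17.2 SRPBM in Control and 51.6, 0 and 0 SRPBM in TLE. If no read was seen, each 0 still allows up to 26.3 or 26.0 SRPBM, and more if a single read was.

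Lrba was also built around an acceptor, but not the one that matches Nbea. Exon 5 started 6 of its 15 circles, 40% of them and 26.1% of its level, and these circles ran over 16 to 33 exons. Their summed level was 128, 149 and 112 SRPBM in Control and 93.0, 52.6 and 51.9 SRPBM in TLE, so the groups did not overlap. This sum was formed after its values were seen and was not tested. For comparison, 2.11% of single circles tested were lower in TLE without overlap. No such share was counted for sums over a shared end. The leading Lrba circle shared its donor, exon 40, with a single other circle and its acceptor with none. Lrba circles were long, with a median of 11 exons and 1611 bases, and 53.3% had more than 10 exons.

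**Figure D2:**
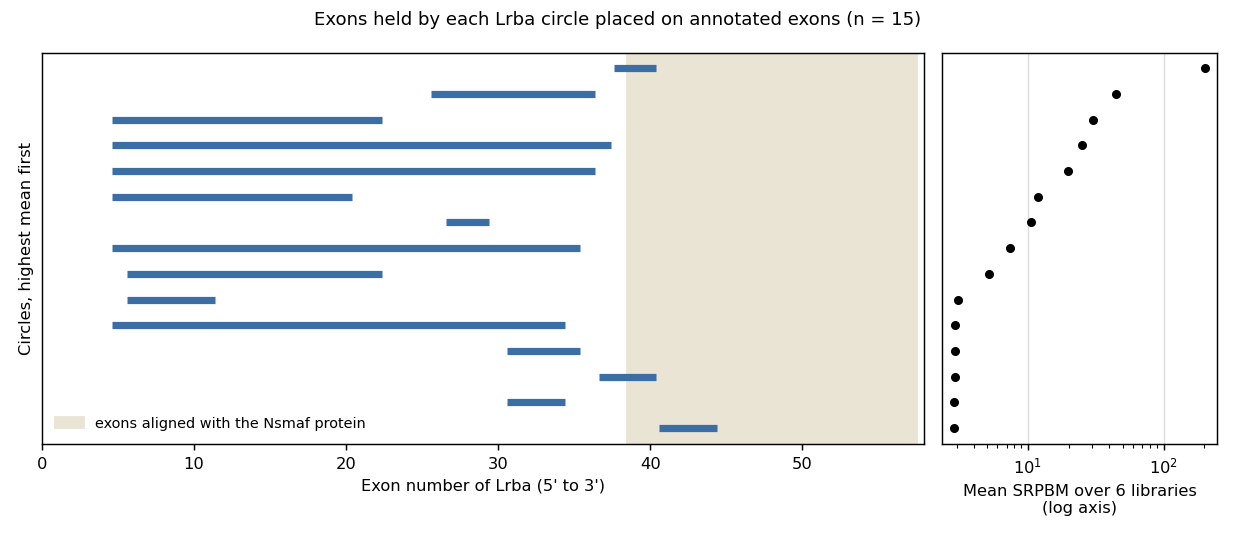
Annotated exons between the ends of the 15 Lrba circles. The exon number is on the x axis, with 1 line per circle ordered by mean level. The mean SRPBM over 6 libraries is on a log axis at the right. The shaded exons 39 to 57 encode the part that aligns with the Nsmaf protein. The 6 circles that start at exon 5 span 16 to 33 exons, and the most abundant circle, exons 38 to 40, crosses the edge of the shaded part.

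The 2 paralogs could be compared exon by exon, since their proteins were 67.3% identical over 2791 aligned residues and 57 of the 58 Nbea exons had a partner in Lrba. Exons 2 and 8 of Nbea correspond to exons 3 and 9 of Lrba, and no Lrba circle started at exon 3. The Lrba hub, exon 5, corresponds to Nbea exon 4, where no Nbea circle started. The leading Lrba circle corresponds to Nbea exons 39 to 41, which no Nbea circle held together. Of 13 first exons used by placed Nbea circles and 8 used by Lrba circles, 3 were partners, and of 16 and 10 last exons, 5 were partners, among them exon 38 of Nbea and exon 37 of Lrba. Both ends lay at partners of a Lrba first and a Lrba last exon in 4 Nbea circles, and in 2 of these (exons 32 to 35 and 42 to 45) the partner pair was itself a Lrba circle (exons 31 to 34 and 41 to 44). These counts describe the overlap and were not set against a chance level.

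The other hosts had few reads. Wdfy3 (ENSMUSG00000043940, chromosome 5) had 3 circles with 20 reads, led by exons 2 to 4 (mmu_circ_0007657) at 34.2, 0 and 34.5 SRPBM in Control and 41.3, 0 and 0 SRPBM in TLE. Its circles of exons 2 to 4 and 2 to 3 shared the acceptor of exon 2, and since the start codon lies in exon 4 the latter held no coding sequence. The third Wdfy3 circle, exons 8 to 10 (mmu_circ_0007656), was at 17.3 SRPBM in TLE 3 and at 0 in the other libraries. Lyst (ENSMUSG00000019726, chromosome 13) had 2 circles with 23 reads. Exons 40 to 42 (mmu_circ_0001851) were at 34.2, 0 and 43.1 SRPBM in Control and 51.6, 0 and 34.6 SRPBM in TLE. Exons 32 to 39 (mmu_circ_0001850) were at 0 in Control and 20.7, 0 and 26.0 SRPBM in TLE, at most 3 reads in any library. Both second replicates lacked every Lyst and Wdfy3 circle. The Nbeal1 circle of exons 40 to 46 (mmu_circ_0005351) went the other way. It was seen only in Control 2, at 37.2 SRPBM, and in TLE 2, at 17.5 SRPBM.

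Nbeal1 (ENSMUSG00000073664, chromosome 1) had 2 circles with 22 reads, and exons 3 to 7 (mmu_circ_0005350) were at 42.7, 0 and 0 SRPBM in Control and 82.6, 0 and 26.0 SRPBM in TLE. Nsmaf (ENSMUSG00000028245, chromosome 4) had 2 circles of 2 reads each, exons 2 to 9 in Control 2 and exons 17 to 20 in TLE 3. These levels are at the limit of what the libraries could show. Both Lyst circles lay in or crossed into the part that aligns with Nsmaf (exons 36 to 52).

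The comparison of TLE with Control asks whether these circles differed 24 h after SE. Only TLE mice received scopolamine methyl bromide, pilocarpine and diazepam, so effects of these agents cannot be told apart from those of SE. Single circles were tested with limma on log2(SRPBM + 17.1), where 17.1 SRPBM is the smallest value in the table, and a circle was called when its log2 fold change reached 1.5 up or down and its unadjusted p was under 0.05. Of the 63 BEACH circles, 24 were above 0 in at least 3 libraries and could be tested (15 of Nbea, 6 of Lrba and 1 each of Wdfy3, Lyst and Nbeal1). None was called by limma, and none had an unadjusted p under 0.05. Over all circles tested 1.57% were called (67 of 4271, 54 higher and 13 lower in TLE, or 37 higher and 25 lower with all libraries set to the same total), so none among 24 is near the background. No circle of the table passed at an adjusted p under 0.05, and 222 had an unadjusted p under 0.05.

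The log2 fold changes of the 24 ran from -1.13 to 1.18, and 13 were below 0. Their median was -0.03, against 0.17 over all circles tested. The smallest p belonged to the Nbea circle of exons 2 to 6, with a log2 fold change of -0.79 ± 0.40 (SE), an unadjusted p of 0.0671 and an adjusted p of 0.922 (limma with Benjamini-Hochberg adjustment over all circles). For the Nbea circle of exons 35 to 38 the log2 fold change was -0.56 ± 0.37 (SE), and for the leading circle it was -0.00 ± 0.22 (SE). The leading Lrba circle stood at 0.22 ± 0.31 (SE). Differences of this size are within the spread between libraries.

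In 2 of the 24 circles the groups did not overlap. The Nbea circle of exons 23 to 30 (mmu_circ_0006813) was at 17.1, 0 and 0 SRPBM in Control and 20.7, 35.1 and 34.6 SRPBM in TLE, so all TLE libraries were higher, on 12 reads in all. Control 1 and TLE 1 had 2 reads each of this circle. They differ in SRPBM only because a single read counts for more SRPBM in TLE 1. The Lrba circle of exons 5 to 37 (mmu_circ_0006915) was at 34.2, 27.9 and 51.7 SRPBM in Control and 20.7, 0 and 17.3 SRPBM in TLE, so all TLE libraries were lower, on 17 reads. Among all circles tested, TLE was higher without overlap in 8.94% and lower without overlap in 2.11%, so single cases among 24 are near the background.

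**Figure D3:**
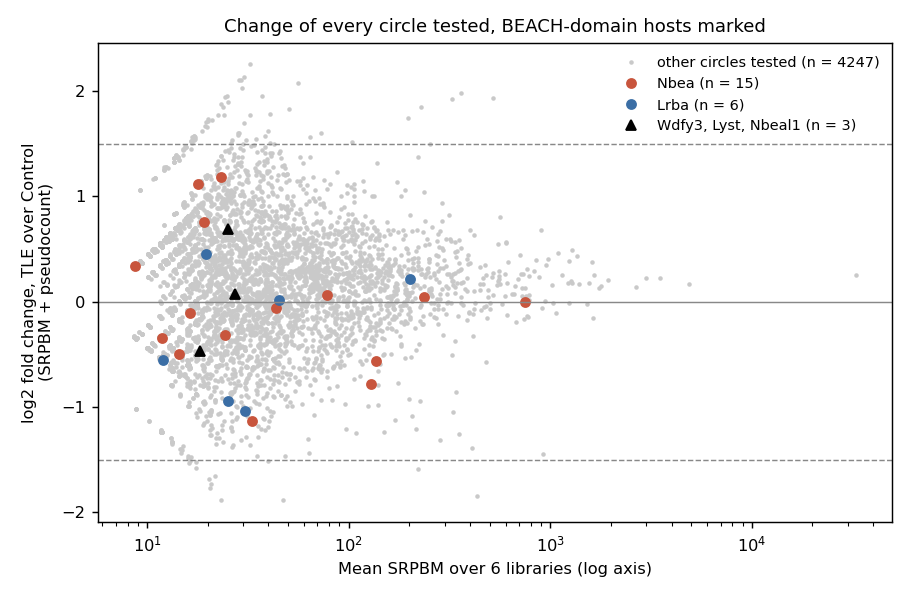
Log2 fold change of TLE over Control (y axis, on the SRPBM + 17.1 scale) against the mean SRPBM over 6 libraries (log x axis) for every circle tested, with the 15 Nbea, 6 Lrba and 3 other BEACH circles marked and dashed lines at the threshold of 1.5. The marked points lie between -1.13 and 1.18, inside the lines.

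Summing the circles of a host puts more reads behind each value. The Nbea sum was 1743, 1571 and 1878 SRPBM in Control and 1167, 1552 and 2103 SRPBM in TLE, with means of 1731 ± 154 and 1607 ± 470 (SD, n = 3 each). TLE 1 lay below and TLE 3 above all Control libraries, and the log2 fold change was -0.14 ± 0.23 (SE; limma over all hosts, unadjusted p = 0.537, adjusted p = 0.910). The Lrba sum was 342, 409 and 362 SRPBM in Control and 310, 316 and 511 SRPBM in TLE, a log2 fold change of -0.00 ± 0.28 (SE). Of the 5 BEACH hosts tested (Nsmaf was not), none was called by limma and none had an unadjusted p under 0.05, with 1.97% of all hosts called (43 of 2179, 35 higher and 8 lower, or 24 and 11 at equal totals). For all 63 circles together the sum was 2192 ± 153 SRPBM in Control and 2106 ± 576 SRPBM in TLE (SD, n = 3 each; two-sided exact permutation test, p = 0.9, where 3 against 3 libraries cannot go below 0.1).

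The libraries differed in their total over all circles, 330961 to 360023 SRPBM in Control and 335753 to 489032 SRPBM in TLE, and the median log2 fold change over all circles tested was 0.17, which fell to 0.01 once every library was set to the same total. On that scale the Nbea sum was 1882, 1801 and 1979 in Control and 1319, 1439 and 1631 in TLE, so every TLE library was below every Control library. The means were 1887 ± 88.9 and 1463 ± 158 (SD, n = 3 each), a TLE to Control ratio of 0.775 (exact permutation, two-sided, p = 0.1, which is the lowest that 3 against 3 allow). In limma over all hosts the rescaled log2 fold change was -0.37 ± 0.13 (SE), with an unadjusted p of 0.0103 and an adjusted p of 0.859. This p ranked 16th of 2179 hosts. It did not pass after adjustment and was short of the fold threshold. Of all hosts on this scale, 4.77% were lower in TLE without overlap.

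Whether the Nbea circles were read as lower thus depended on how the libraries were scaled, and the ratio was 0.929 as deposited. After scaling by totals without the most abundant circle of the table it was 0.777, and after scaling by the median ratio over the 1553 circles seen in all libraries it was 0.789. On both scales the groups did not overlap. Leaving out single libraries, the ratio ran from 0.731 to 0.814 at equal totals, and from 0.786 to 1.06 as deposited, where leaving out TLE 1 put it above 1. The Lrba sum at equal totals was 406 ± 54.5 in Control and 346 ± 51.8 in TLE (SD, n = 3 each; exact permutation p = 0.3), with overlap.

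**Figure D4:**
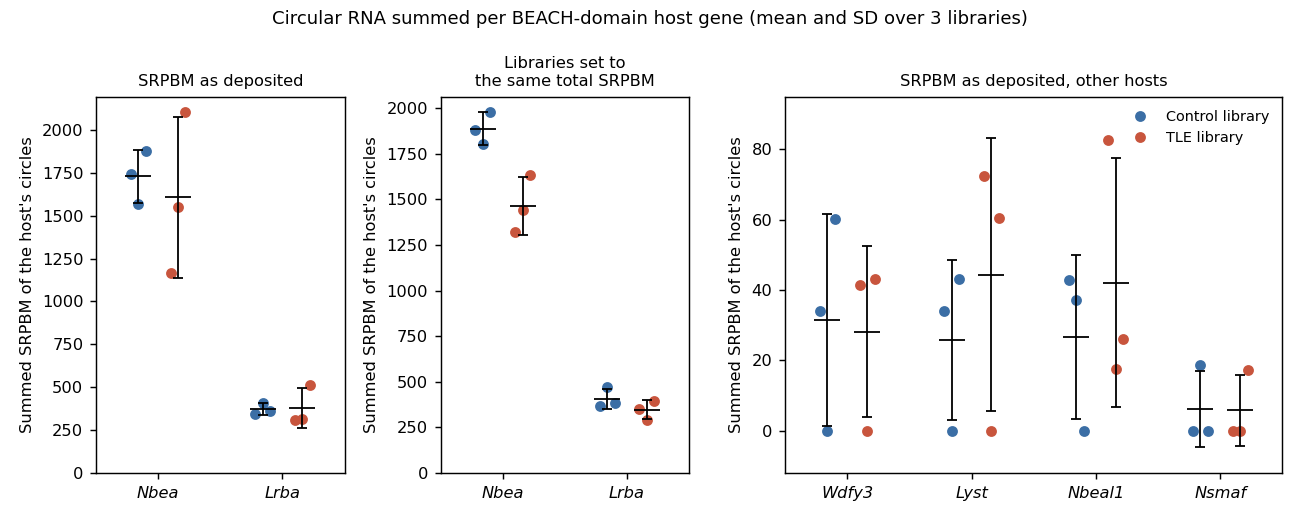
Summed level of the circles of each BEACH-domain host (y axis, SRPBM) with 1 point per library, a mark at the mean and bars of 1 SD over 3 libraries, as deposited (left and right panels) and with all libraries set to the same total (middle panel). The Nbea groups overlap as deposited and are apart at equal totals, 1801 to 1979 in Control and 1319 to 1631 in TLE.

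At equal totals 2 of the 24 BEACH circles had an unadjusted p under 0.05 in limma, both of Nbea and both with an adjusted p of 0.939. Over all circles tested on this scale, 208 of 4271 had an unadjusted p under 0.05 in limma, so 2 among 24 do not set the BEACH circles apart. In limma, exons 2 to 6 had a log2 fold change of -0.999 ± 0.36 (SE, unadjusted p = 0.0118) and exons 35 to 38 of -0.77 ± 0.33 (SE, unadjusted p = 0.0315). For the leading circle of exons 2 to 8 limma gave -0.22 ± 0.17 (SE, unadjusted p = 0.207). A difference between these circles in their response was not tested beyond the shares that follow.

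Shares within Nbea do not depend on the scaling. The circle of exons 35 to 38 made up 8.82%, 8.28% and 11.01% of the Nbea level in Control and 5.31%, 6.78% and 7.82% in TLE, without overlap (two-sided exact permutation test, p = 0.1, adjusted p = 0.64 over 8 shares compared). That of exons 2 to 6 made up 9.80%, 11.8% and 6.88% in Control and 3.54%, 6.21% and 6.996% in TLE, and the groups overlapped (exact permutation p = 0.2). The leading circle made up 44.6%, 40.8% and 44.5% in Control and 54.0%, 49.2% and 41.2% in TLE (exact permutation p = 0.3). All circles that start at exon 2 together held 70.1% ± 3.82 in Control and 70.4% ± 4.23 in TLE (SD, n = 3 each; exact permutation p = 0.9), and those that end at exon 38 held 18.1% ± 0.85 and 14.9% ± 5.22 (SD, n = 3 each; exact permutation p = 0.4). The use of the exon 2 hub was thus nearly level between groups, while the design of 3 against 3 could not have reached p under 0.1 for any share.

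Genes that work beside BEACH proteins showed no called change in their summed circles, again with limma over all hosts and 1.97% of hosts called. Of 17 genes for protein kinase A subunits and its anchoring proteins, 9 had circles, 7 could be tested and none was called, with a median log2 fold change of 0.33. Akap7, an anchoring protein, was at 282, 223 and 379 SRPBM in Control and 341, 377 and 320 SRPBM in TLE, with overlap. The sums of Akap10 and Akap9, named after their values were seen, were higher in every TLE than in every Control library. Among single circles tested, 8.94% were higher in TLE without overlap, and for host sums as deposited this share was not counted. Akap10 was at 34.2, 55.8 and 60.3 SRPBM in Control and 93.0, 61.4 and 208 SRPBM in TLE (limma, unadjusted p = 0.0844, adjusted p = 0.836). Akap9 was at 0 in Control and 31.0, 26.3 and 17.3 SRPBM in TLE, at most 3 reads in any library (limma, unadjusted p = 0.0392, adjusted p = 0.759). It met the filter of at least 3 libraries above 0 through TLE alone, so no conclusion is drawn from its p. Of 23 selective autophagy genes, 8 had circles, 4 could be tested and none was called (median -0.07). Of 22 genes of lysosomes and related organelles, 14 had circles, 10 could be tested and none was called (median 0.36). Vps8 of this list, also named after its values were seen, was higher in every TLE library too. It was at 59.8, 46.5 and 51.7 SRPBM in Control and 62.0, 70.1 and 60.6 SRPBM in TLE (limma, unadjusted p = 0.655, adjusted p = 0.952). In both Akap10 and Vps8 the closest Control and TLE values lay less than the SRPBM of a single read apart. The median over all hosts tested was 0.20.

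The hosts whose summed level followed that of Nbea most closely over the 6 libraries were Dlgap1, a scaffold of the postsynaptic density, Nsd2, a histone methyltransferase, and Pcmtd1. Likeness was the root mean square difference of the centred log2 levels over the 6 libraries, which was 0.05, 0.07 and 0.08, against a median of 0.50 over 1197 hosts seen in every library. Dlgap1 was at 1504, 1395 and 1662 SRPBM in Control and 1105, 1324 and 1930 SRPBM in TLE, with TLE 1 lowest and TLE 3 highest, as in Nbea. Lrba ranked 44th at 0.19. All hosts share the depth and total of each library, and that order of TLE libraries is also the order of their totals.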

How the data were processed

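Total RNA was depleted of ribosomal RNA and sequenced from directional libraries. The authors aligned reads with BWA-MEM, called circRNAs with CIRI and deposited 1 table of SRPBM, a normalized signal of junction reads scaled to mapped reads, which is repeated for each sample. The build was mm10 per the submitters' processing notes, which also name DESeq2. No columns of comparisons by the authors were used. The tools' versions are not given in the sources used here.

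Hosts were matched by Ensembl ID to symbols (3466 of 3506), and circles to exons of GENCODE mouse release M21 (GRCm38). Proteins were translated and aligned with Biopython 1.88. The BEACH genes, the gene lists and the tests were chosen with earlier results of these data known. Named were each host's leading circle, the 5 highest of Nbea, the 3 highest of Lrba, Wdfy3 and Lyst, and tested circles without overlap between groups. Other circles are named where a count of 5 or fewer calls for it, after their values were seen.

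Main tests used limma 3.58.1 (trend, two-sided, no covariates) in R 4.3.3 on log2(SRPBM + 17.1) of circles, or host sums, above 0 in at least 3 of 6 libraries, with Benjamini-Hochberg adjustment over all tested; fold changes on this scale understate changes of low circles. Single values were compared with exact permutation tests in scipy 1.17.1. The limma step was tested on simulated data, with changes planted only in circles with many reads and with counting noise alone. Most BEACH circles had fewer reads and the libraries varied more, so it does not show what could be found among them. Every value was within 0.1 of a whole number of junction reads, which gives the depth behind it. Deviations of same-numbered libraries correlated at 0.010 to 0.019. Whether such libraries share a day or litter is not stated, and these correlations cannot decide it, since most circles had few reads. No pair of libraries within a group agreed within sampling noise. Pseudocount, filter, scaling, variance prior, threshold, a replicate block and leaving out each library were varied.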

Additional observations from a re-analysis of the deposited data

How the results depend on the processing

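No BEACH circle and no BEACH host was called under another pseudocount, filter, scaling, variance prior or threshold. Leaving out libraries gave 0 to 2 called circles: without Control 2 the Nbea circles mmu_circ_0006789 (exons 36 to 39) and mmu_circ_0006815 (exons 2 to 18), and without TLE 1 the Lrba circle of exons 5 to 22, at a log2 fold change of -1.71. Over all circles, the 67 calls became 168 with a pseudocount of 8.55 SRPBM, 130 with 1 SRPBM, 1 among circles above 0 in all 6 libraries, 196 at a log2 fold change of 1, and 84 to 120 with a library left out. Over all hosts, the 43 became 80, 1 (all 6 libraries), 111 (log2 fold change of 1) and 52 to 69 in the same order, with a pseudocount of 1 SRPBM within 1.5 times of 43. With replicate number as a block the counts stayed at 67, 0, 43 and 0, and whether the numbers pair the libraries is not known.

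The BEACH circles listed fell from 63 to 37 when at least 2 libraries were asked for, and to 37 with at least 5 reads. The difference of the summed BEACH level, -85.5 SRPBM, ran from -413 to 131 with a library left out, and turned positive without TLE 1 or TLE 2. The Nbea ratio ran from 0.786 to 1.06. Among values of single circles and hosts under alternatives, 192 kept direction and side of the threshold, 31 turned and 1 passed it; the cause was not tested. With equal totals, log2 fold changes turned to -0.17 for Nbea exons 2 to 10, -0.13 for Nbea exons 36 to 38, -0.20 for Lrba exons 26 to 36 and -0.008242 for Lyst exons 40 to 42. Lrba exons 26 to 36 also turned to -0.15 and -0.97 with pseudocounts of 8.55 and 1 SRPBM. With libraries left out, ranges across 0 were -0.11 to 0.12 for Nbea exons 2 to 8, -0.19 to 0.26 for exons 2 to 10, -0.54 to 0.46 for exons 36 to 38, -0.03731 to 0.38 for Lrba exons 38 to 40, -0.53 to 0.83 for Lrba exons 26 to 36 and -0.50 to 0.67 for Lyst exons 40 to 42. For host sums they were -0.35 to 0.065 for Nbea, -0.23 to 0.11 for Lrba, -0.68 to 0.54 for Wdfy3, -0.18 to 1.15 for Lyst and -0.11 to 0.80 for Nbeal1.

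Count-based tests with edgeR or DESeq2 were not run. The table holds normalized values, the read numbers were inferred from them, and circles with a single read in a library are not listed. The BEACH circles had a median of 5 reads over the 6 libraries, and 39 of the 63 were below the filter and have no test.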
